A study of Homo sapiens with 24 samples.

Results

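Protein-coding promoters bound by KRAB zinc finger proteins (KZFPs) other than ZNF251 were collected from peak lists of 20 KZFPs, as peaks with a MACS score above 80 whose midpoint lay within 500 bp of the start of a protein-coding transcript. The MACS score grows with the −log10 of the peak's p-value and ranks peaks within 1 list only. Of the 10743 peaks above 80 in these lists, 327 were promoter peaks (3.04%, exact 95% interval 2.73 to 3.39), against 31717 peaks above 80 in the whole series of 21 KZFPs. They lay at the starts of 334 genes, which is 1.68% of the 19834 protein-coding genes searched. Since the rule names both the score and the distance, the presence of these peaks near starts is not a result, and the results below concern their distribution over KZFPs, genes and sequences.

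Each library came from HEK293T cells, a human embryonic kidney line, transduced with a doxycycline-inducible plasmid that encodes 1 human KZFP carrying HA tags, selected with puromycin and induced with doxycycline at 1 µg/mL. The tagged protein was precipitated with an antibody against HA. ChIP-exo, which trims the DNA ends of the precipitate with an exonuclease, was used for 14 of the 20 KZFPs (ZFP28, ZKSCAN4, ZKSCAN7, ZNF34, ZNF160, ZNF195, ZNF416, ZNF446, ZNF546, ZNF578, ZNF724P, ZNF729, ZNF763 and ZNF850). ChIP-seq was used for ZKSCAN8, ZNF20, ZNF213, ZNF256, ZNF597 and ZNF746, and for the HEK293T control (293Tctrl). All KZFPs were thus overexpressed and tagged, in 1 cell line, and there was 1 library per KZFP. Differences between KZFPs therefore have no replicate check, intervals cover counting error only, and assay and KZFP cannot be told apart. Peak lists hold no expression values, so the identity of the cells could not be checked with marker genes. Read depth is not in the lists. The study's design text gives a minimum of about 15000000 reads of 100 bp for ChIP-exo and about 27000000 reads of 85 bp for ChIP-seq.

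KZFPs are a large family of DNA-binding proteins in mammals. Their arrays of C2H2 zinc fingers read DNA sequence, and the KRAB domain of most members recruits KAP1 (TRIM28), a scaffold for the histone methyltransferase SETDB1 and other silencing factors. Most KZFPs bind sequences derived from transposable elements, which lie in many related copies over the genome, while some of the older members are found at promoters. Many mammalian promoters are CpG islands, stretches rich in G, C and undepleted CpG, and many drive transcription in both directions.

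The sequences under promoter peaks were set against those of the other peaks of the same KZFP. For each KZFP with at least 50 other peaks and 5 promoter peaks, the 8-base word that was most in excess in the central 100 bp of the other peaks over windows 500 bp away was taken as its leading word. Promoter peaks had no part in that choice. Sequences below are from hg19, read 5′ to 3′, with the leading word in capitals. For ZNF746, PITX1, ATP2A2, HIVEP2, ZNF652, PURA and IRF2 are shown because they hold the word and have the highest scores among the promoter peaks shown here.

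PITX1 (chr5:134369973-134370040, plus strand): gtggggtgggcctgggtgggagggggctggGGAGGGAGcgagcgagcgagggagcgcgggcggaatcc

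ATP2A2 (chr12:110719336-110719365, plus strand): ttctggcgaggGGAGGGAGggtgggtcagg

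HIVEP2 (chr6:143267255-143267284, plus strand): agggcgggcgcGGAGGGAGggaaaagatcc

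ZNF652 (chr17:47439588-47439617, plus strand): ggagggggcagGGAGGGAGgcgagcggcgg

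PURA (chr5:139487734-139487763, minus strand): gcaggctggcgGGAGGGAGggcgcgcgcga

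IRF2 (chr4:185395733-185395800, minus strand): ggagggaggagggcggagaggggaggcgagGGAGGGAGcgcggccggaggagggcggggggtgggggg

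These stretches are rich in G on the strand shown, and several hold further copies of GGAG. For ZNF578, promoter peaks with its leading word are shown because the word is rare at starts in general. Of the 5 such peaks 3 are shown. Those at ARHGAP32 and PARD3 are left out, and their 68 bases around the word are identical at 65.

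METRNL (chr17:81041878-81041945, minus strand): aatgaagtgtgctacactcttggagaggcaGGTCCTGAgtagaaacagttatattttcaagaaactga

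FAM120AOS (chr9:96215603-96215632, minus strand): agtcactgctgGGTCCTGAagttctcctct

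AASDH (chr4:57253393-57253460, plus strand): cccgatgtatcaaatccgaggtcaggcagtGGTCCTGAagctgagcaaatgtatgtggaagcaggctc

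For ZNF850, the 4 promoter peaks with its leading word are shown for comparison.

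CCNG2 (chr4:78079152-78079219, minus strand): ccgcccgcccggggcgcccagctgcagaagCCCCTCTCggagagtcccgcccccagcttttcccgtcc

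PSMD11 (chr17:30771185-30771252, plus strand): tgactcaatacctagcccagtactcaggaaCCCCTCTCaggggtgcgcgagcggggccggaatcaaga

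PPM1E (chr17:56833114-56833181, minus strand): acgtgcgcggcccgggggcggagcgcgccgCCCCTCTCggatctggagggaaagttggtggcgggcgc

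NDUFB7 (chr19:14683005-14683072, minus strand): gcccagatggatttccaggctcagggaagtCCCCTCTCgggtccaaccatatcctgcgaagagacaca

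The promoter peaks were spread unevenly over the KZFPs. ZNF746, known as PARIS and as a substrate of the ubiquitin ligase parkin, gave 180 of the 327 promoter peaks (55%), and 69.2% of its own 260 peaks above 80 were at promoters (63.2 to 74.8). ZNF546 was the other KZFP with more promoter peaks than other peaks, among those with over 3 peaks, with 13 of 24 (54.2%, 32.8 to 74.4). ZNF850 had 35 promoter peaks of 464 (7.54%, 5.31 to 10.3) and ZNF763 had 16 of 224 (7.14%, 4.14 to 11.3). At the other end, ZNF160, with the longest list of 6377 peaks, had 10 promoter peaks (0.157%, 0.0752 to 0.288). ZFP28 had 14 of 1098 (1.28%, 0.699 to 2.13) and ZNF724P had 6 of 505 (1.19%, 0.437 to 2.57).

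Between these, ZNF578 had 25 promoter peaks of 854 (2.93%, 1.90 to 4.29). ZKSCAN7 had 7 of 337, ZNF446 5 of 97, ZNF34 4 of 78, ZNF20 4 of 91, ZNF195 3 of 110, ZKSCAN4 2 of 96, ZNF416 2 of 65 and ZNF256 1 of 3. ZNF729 (43 peaks), ZKSCAN8 (9 peaks) and ZNF597 (8 peaks) had none, which for ZNF729 allows a share of up to 8.22% by the exact interval, and ZNF213 had no peak above 80. Without ZNF746, 147 of 10483 peaks were promoter peaks (1.40%). ZNF251, the KZFP left out here, had 1385 promoter peaks of 20974 (6.60%) at 7.57% of protein-coding genes. The control had 4 peaks above 80, none at a promoter, and its share over all deposited scores was 3 of 163 peaks (1.84%, 0.381 to 5.28). No promoter peak overlapped a deposited control peak and none lay on the gene of the transduced KZFP. Such peaks were rare in the KZFP lists at any deposited score, with 25 on a control peak and 2 on the transduced gene. Their absence at promoters therefore does not set promoter peaks apart from other peaks. The control is also a short ChIP-seq list, while most KZFPs were assayed by ChIP-exo.

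**Figure D1:**
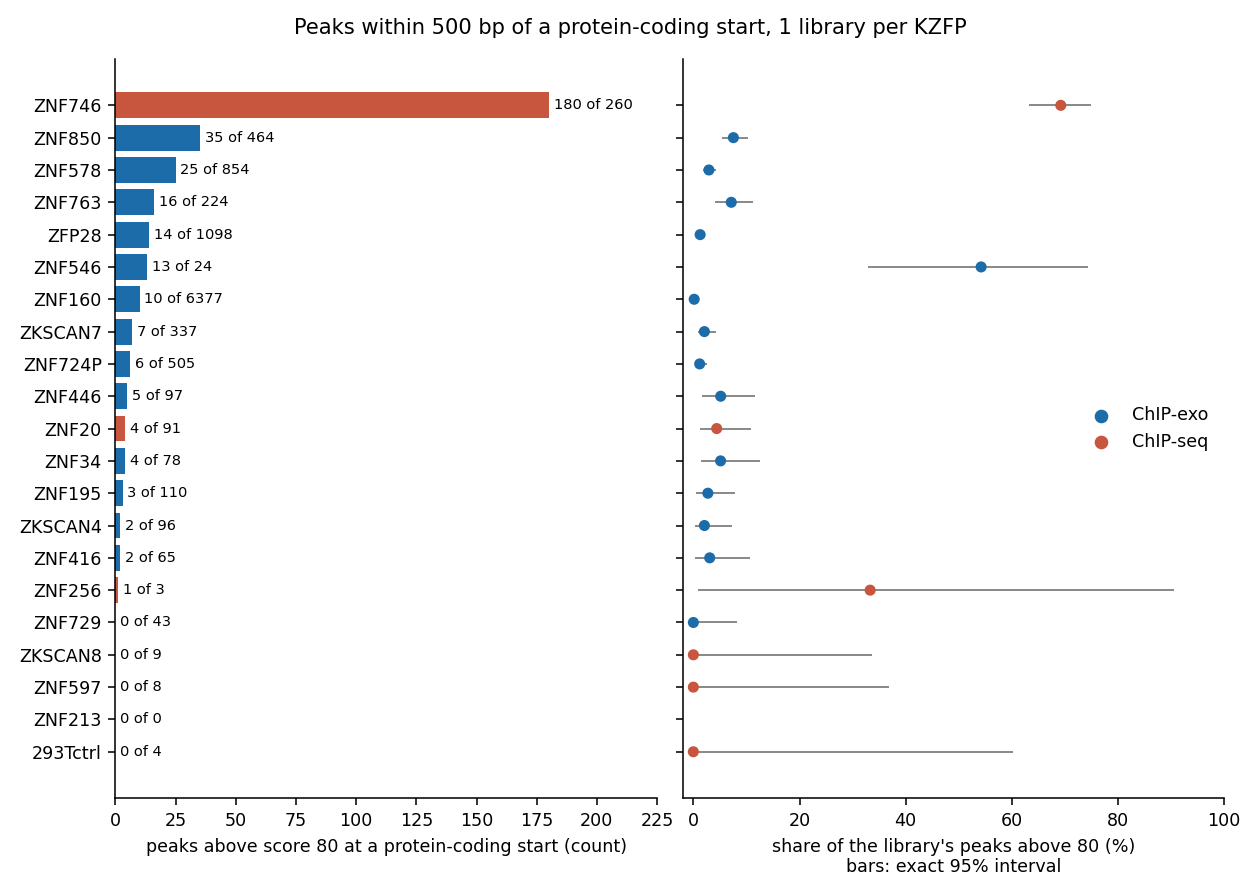
Count of promoter peaks (left, bars, in peaks, with the number of all peaks above 80) and their share of the library's peaks (right, points, in %, with exact 95% intervals) for the 20 KZFPs and the control, coloured by assay. ZNF746 stands apart on both scales with 180 of 260 peaks, and ZNF546 with 13 of 24 is the next highest share with a lower bound above 30%.

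The values at the edges of the rule were close on both sides. The farthest midpoint inside the distance limit was that of the ZNF850 peak at BCL7B, 492 bp from the start, and the nearest outside were a ZKSCAN7 peak at ADCY5 and a ZNF160 peak at SLC19A1, both at 504 bp, and a ZNF746 peak at DENND4B, at 505 bp. The DENND4B peak had a score of 503.68, above every ZNF746 promoter peak. The lowest score inside was 80.04, of the ZNF746 peak at CDC42BPA, and the highest outside was 79.75, of the ZNF746 peak at IGDCC3. There were 100 peaks above 80 at 500 to 1000 bp from a start, and 566 promoter peaks with a score of up to 80.

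Midpoints fell on both sides of the start. Of the 327, 177 (54.1%) lay upstream and 128 lay within 100 bp of the nearest start. By annotation, 120 midpoints lay in a UTR exon, 18 in a coding exon, 113 in an intron and 76 upstream of every coding transcript. The counts by KZFP are given without intervals, and differences between them were not tested. ZNF850 had 25 of 35 midpoints upstream, with a median of -64 bp, and 15 of them upstream of every coding transcript. ZNF546 had 3 of 13 upstream, with a median of 80 bp downstream, and ZNF763 had 5 of 16 upstream, with a median of 106 bp downstream and 7 of 16 midpoints in coding exons. ZNF746 had 101 of 180 upstream, with a median of -32.5 bp, and ZNF578 had 13 of 25 upstream, with a median of -14 bp.

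Promoter peaks scored above the other peaks for some KZFPs and below them for others. The median score was 118 for ZNF746 promoter peaks against 109 for its other peaks, 149 against 126 for ZNF850, 179 against 155 for ZFP28 and 144 against 142 for ZNF546. It was lower at promoters for ZNF578 (112 against 129), ZNF763 (89.9 against 94.7), ZNF160 (152 against 215) and ZNF724P (104 against 160). Median lengths of promoter peaks were 437 bp for ZNF746, 522 bp for ZNF850 and 509 bp for ZNF578, against 440, 491 and 472 bp for their other peaks.

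**Figure D2:**
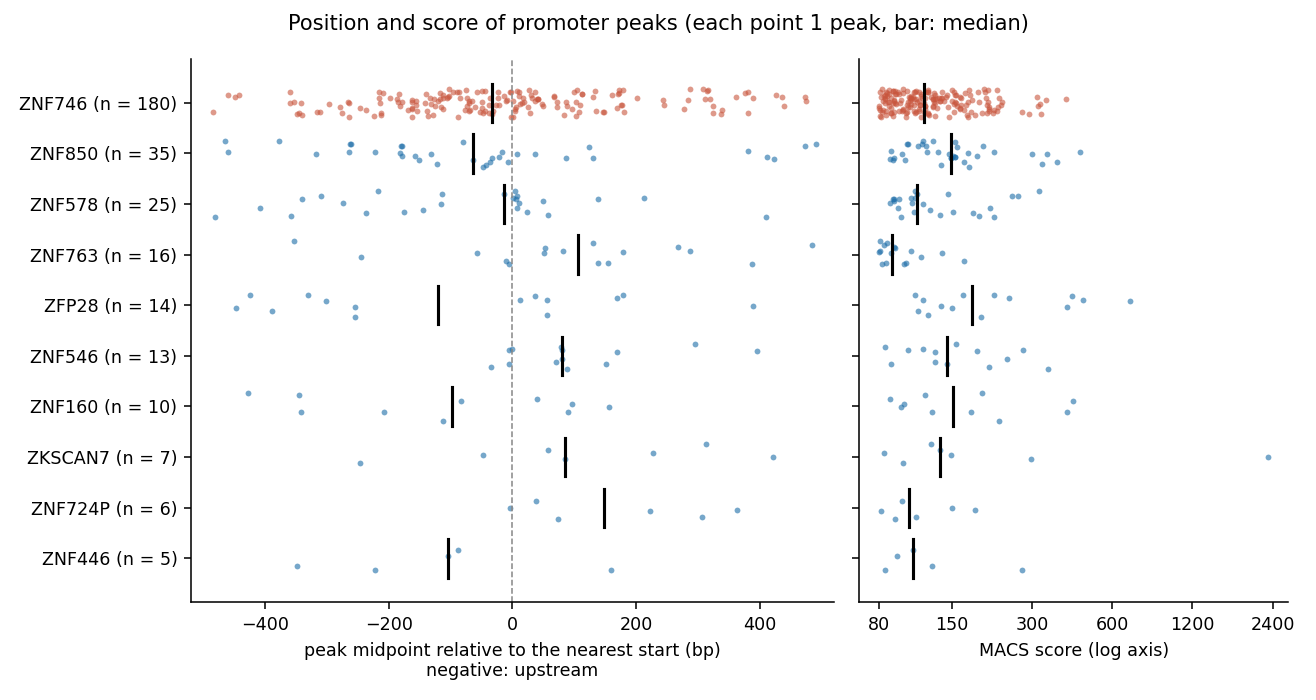
Position of each promoter peak's midpoint relative to the nearest start (left, in bp, negative is upstream) and its MACS score (right, log axis) for KZFPs with at least 5 promoter peaks, with the median as a bar. ZNF850 midpoints lie mostly upstream (25 of 35) and ZNF546 midpoints mostly downstream (10 of 13 at or after the start), and the single point far to the right is the ZKSCAN7 peak at MTRNR2L10.

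ZNF746 was found at the starts of 179 genes (0.902% of protein-coding genes). Its highest-scoring promoter peaks were at EFCAB2 (score 401.74, 312 bp downstream of the start), PAFAH1B1 (339.13, 8 bp upstream), which encodes the LIS1 protein that regulates dynein, and HOXB9 (324.86, 349 bp upstream). Among 23 gene classes defined by symbol, the class of homeobox and developmental factors had the largest difference from its share of all genes. It held 15 of the 179 ZNF746 genes (8.38%, 4.77 to 13.4), against 1.44% of all protein-coding genes, 1.56% of genes with a CpG-rich start, 1.40% of the ZNF251 promoter genes and 3 of 158 genes (1.90%, 0.393 to 5.45) of the other KZFPs. With 1 start per gene the ZNF746 share was 9.63% (13 of 135).

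The 15 genes were mostly transcription factors of embryonic patterning. They included the HOX genes HOXB9, HOXC6 (score 168.68), HOXA13 (155.68) and HOXD13 (153.47), which set position along the body axis and in the limb. PITX1 (322.07), a factor of hindlimb and pituitary development, had the second highest score of the class. FOXF1 (183.35), GATA6 (136.11), IRX5 (97.51), SIX4 (98.73) and SOX7 (81.86) are further developmental regulators, and POU6F1 (127.27) and POU2F1 (107.46) are POU factors, of which POU2F1 is expressed in most cells. The class pattern also took in BMP7 (89.05), a growth factor, and BMP1 (135.04), which is a protease and no growth factor. The homeobox genes ALX4 (138.27) and GBX1 (91.77) also had ZNF746 promoter peaks but were outside the pattern, and are named after their values were seen.

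Other transcription and chromatin genes were also among the ZNF746 promoters. Chromatin regulators made up 6 of the 179 genes (3.35%, 1.24 to 7.15) against 0.998% of all genes. They were 1.33% of the ZNF251 promoter genes and 3 of 158 genes of the other KZFPs (1.90%, 0.393 to 5.45), shares that the ZNF746 interval holds. Among them were BRD2 (202.05), a reader of acetylated histones, MBD6 (110.69), BRPF3 (109.36), SMARCA2 (105.71), an ATPase of the SWI/SNF complex, and DNMT3A (91.78), a DNA methyltransferase. The 4 promoter genes in the class of other C2H2 transcription factors, SP1 (207.29), KLF10 (155.84), SP4 (154.07) and SP3 (104.53), all belonged to ZNF746 (2.23%, 0.612 to 5.62, against 0.570% of all genes). The share of that class among ZNF251 promoter genes was 1.27%, within the ZNF746 interval. Neither class was counted at CpG-rich starts. SP and KLF factors bind GC-rich promoter elements. The cell cycle class had 3 of the 179 genes (1.68%, 0.347 to 4.82), an interval that holds the 1.02% of all genes. They were E2F3 (179.37), a regulator of entry into S phase, CDK9 (132.32), a kinase of transcription elongation that was also counted with basal transcription, and CDC42BPA (80.04), a cytoskeletal kinase taken in by its symbol.

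ZNF850 was found at 42 genes (0.212% of protein-coding genes). The symbol patterns of the developmental and chromatin classes, which hold 1.44% and 0.998% of all genes, took none of the 42, and with intervals up to 8.41% this count does not set ZNF850 apart. Genes of these kinds outside the patterns were present, named after their values were seen, with PHC2 (91.06), a Polycomb protein, and BCL7B (102.88), a SWI/SNF subunit. Its highest scores were at TGIF2 (454.05, 222 bp upstream), a homeobox repressor of TGF-beta signalling that also lies outside the patterns, at the shared promoter of OAZ3 and MRPL9 (373.71), which encode an antizyme inhibiting polyamine synthesis and a mitochondrial ribosomal protein, and at KCMF1 (341.01). The class of genes still named after clones or transmembrane predictions had 3 members, TMEM208 (197.06), TMEM187 (115.86) and TMEM134 (97.87), which is 7.14% (1.50 to 19.5) against 4.10% of all genes. PSMD11 (187.25), a proteasome subunit, and FBXO30 (127.93), a ubiquitin ligase subunit, were the members of the ubiquitin class. The peaks at SLX1A with BOLA2B (149.28) and at SLX1B with BOLA2 (148.97) lie in near-identical copies of a duplicated segment, where the placement of reads is uncertain.

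ZNF578 was found at 29 genes (0.146% of protein-coding genes). Its highest scores were at TMEM109 (317.68, 218 bp upstream), TXNDC15 (266.14, 309 bp upstream) and METRNL (252.07, 8 bp downstream), a secreted factor. No class had 3 or more members. HOXB13 (108.74), SETD5 (124.40), FANCA (208.24), a Fanconi anaemia protein of DNA repair, and RNF185 (145.04), a ubiquitin ligase, each stood for their class.

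The remaining KZFPs had under 20 promoter genes each. ZFP28 had its highest scores at PYM1 (700.03, 301 bp upstream), a factor that removes exon junction complexes from mRNA, at KRBOX5 (468.03), which encodes a KRAB domain protein, and at ANKMY2 (424.35). Among the high-scoring ones of ZNF546 were those at ZNF697 with PHGDH (345.57), the latter the first enzyme of serine synthesis, and at TSPAN7 (242.93), a tetraspanin. ZNF160 had its highest scores at ZNF227 (426.08), KLKB1 (405.65), which encodes plasma prekallikrein, and MAGEC3 (226.68). ZNF763 had its highest scores at CDC27 (167.17), a subunit of the anaphase-promoting complex, FAM229A with TSSK3 (137.57) and CALHM6 (115.52). Its list also held the homeobox genes DLX3 (80.22) and MIXL1 (92.00), of which the class pattern took DLX3, and which are named after their values were seen. Peaks of ZNF763 at TBC1D3F (91.25) and FKSG68 (83.84) lie at members of multicopy families and are uncertain in place.

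ZKSCAN7 had its highest score at MTRNR2L10 (2314.70), a gene that resembles mitochondrial DNA, where the placement of reads is uncertain. Its next were OPCML (297.02) and INPPL1 (148.75). ZNF724P had FYN (182.94), a SRC family kinase, LIG4 (149.90), the ligase of non-homologous end joining, and MIER1 (110.48). ZNF34 had SLC39A1 with CREB3L4 (357.79), ZNF566 (294.04) and YTHDC1 (135.71), a reader of methylated RNA. ZNF446 had GEMIN4 (274.30), of the SMN complex, ANKRD24 (126.57) and ATXN2L (106.99). ZNF195 had TM2D1 (215.27), GCLC (178.78) and DPYD (88.54). ZNF20 had CHD2 (139.32), a chromatin remodeller, SKP2 with LMBRD2 (135.12), and GINS4 (110.68), of the replicative helicase. ZNF256 had PGK1 (209.02), a glycolytic enzyme, ZKSCAN4 had RAET1G (127.94) and MPDZ (98.45), and ZNF416 had DSCAM (174.74) and TSPAN7 (117.44).

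The 334 genes as a whole were close to all genes in most classes. Classes took in 87 of them (26.0%) against 25.6% of all protein-coding genes. There was no histone, cytosolic ribosomal protein, translation factor, clustered protocadherin, keratin or mitochondrially encoded gene among them. For each of these classes, 0 of 334 genes allows a share of up to 1.10%, and their shares of all genes were all below that. Solute carriers made up 1.50% (5 genes) against 1.95% of all genes, the ubiquitin and proteasome class 2.10% (7 genes) against 1.73%, and the cell cycle class 1.50% (5 genes) against 1.02%.

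**Figure D3:**
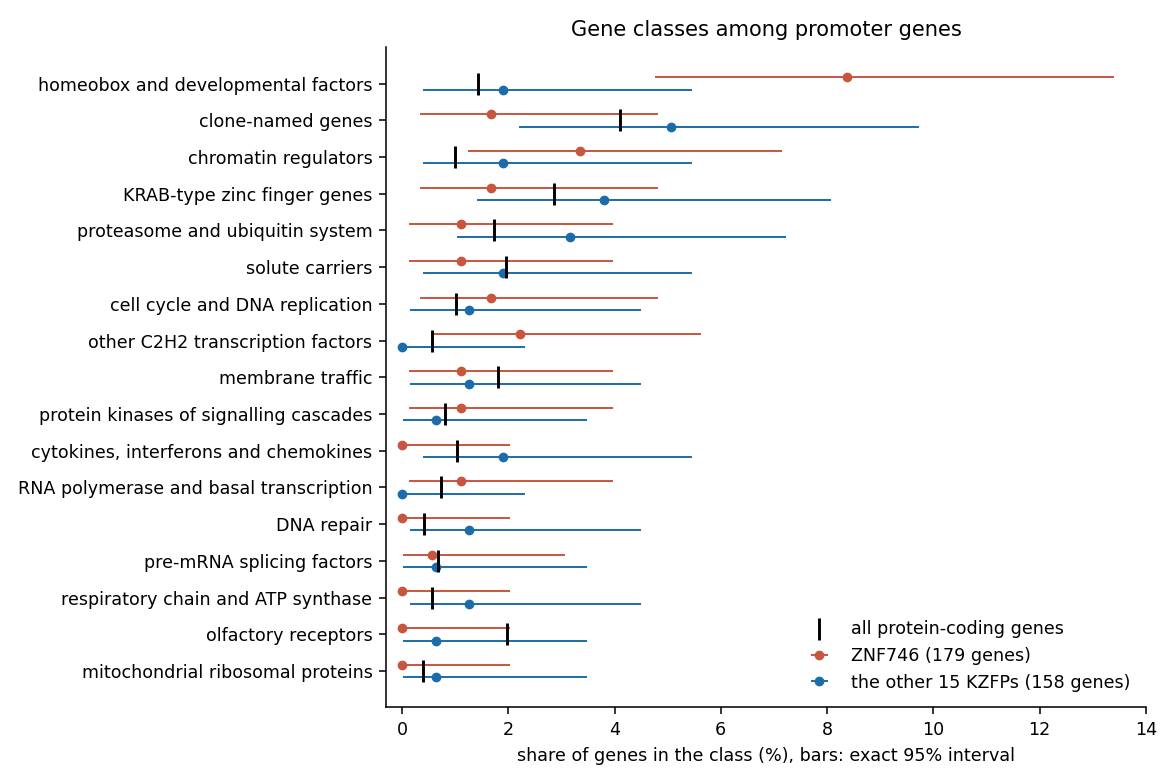
Share of promoter genes in each gene class with at least 1 promoter gene (in %, points with exact 95% intervals) for ZNF746 (179 genes) and the other 15 KZFPs with promoter peaks (158 genes), beside the share of all protein-coding genes (black marks). The ZNF746 interval for homeobox and developmental factors (4.77 to 13.4%) lies above the 1.44% of all genes, while the interval of the other KZFPs (0.393 to 5.45%) spans it.

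Genes with zinc finger symbols, a class that takes in the family of the transduced proteins, were found among the 334 at about their share of all genes. The class rests on symbols, so it does not tell which of its genes encode a KRAB domain. There were 9 (2.69%, 1.24 to 5.05) against 2.87% of all genes and 4.93% of the ZNF251 promoter genes (74 genes). They were ZNF227 (426.08) and ZNF585A (177.31) with ZNF160, ZNF697 (345.57) with ZNF546, ZNF566 (294.04) with ZNF34, ZNF652 (206.32) with ZNF746, ZNF548 (111.64) with ZNF578 and ZNF564 (89.20) with ZNF850. The other 2, ZFP36L2 (152.48) and ZFP36L1 (131.02) with ZNF746, encode CCCH-type proteins that bind mRNA and share only the symbol.

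Peaks of more than 1 KZFP were found at 7 genes. Of the 334 genes, 327 had 1 KZFP, 6 had 2 and DSCAM, a neuronal adhesion molecule, had 3. Even the KZFPs with most promoter genes had peaks at small shares of all protein-coding genes. These were 0.902% for ZNF746, 0.212% for ZNF850 and 0.146% for ZNF578, so a low number of shared genes is not in itself a result. At DSCAM, the ZNF416 peak (174.74), the ZNF546 peak (155.79) and the ZNF850 peak (88.39) had their midpoints 343, 295 and 423 bp downstream of the start, in a UTR exon. Lower deposited peaks of ZNF724P and ZNF763 and a ZNF251 peak above 80 overlapped there as well. The 3 peaks shared 102 bp (chr21:42218688-42218789). Its middle 30 bases are shown because peaks of 3 KZFPs met there.

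DSCAM (chr21:42218723-42218752, plus strand): gctgcctagccgcccgggcacgcggcgcgg

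TSPAN7 had ZNF546 (242.93) and ZNF416 (117.44), and BMP8B, a ligand of the BMP family, had ZNF546 (186.01) and ZNF724P (81.75). Both promoters also overlapped a ZNF251 peak above 80. FIGN, a microtubule-severing enzyme, had ZNF578 (136.17) and ZNF746 (80.34), with 175 bp in common. Of these, 100 are shown because both proteins were found on them and neither leading word lies there. The ZNF746 peak does hold its leading word near its midpoint, just beyond the common stretch.

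FIGN (chr2:164592585-164592684, plus strand): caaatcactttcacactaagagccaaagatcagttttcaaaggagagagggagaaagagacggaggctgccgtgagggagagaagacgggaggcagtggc

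At 2 genes the peaks did not overlap. ATXN2L had a ZNF446 peak (106.99) next to a ZNF746 peak (84.96), and GCLC, the catalytic subunit of the enzyme that makes glutathione's precursor, had ZNF195 (178.78) and ZNF850 (99.92) at different starts. In all, 11 promoter peaks overlapped a peak above 80 of another of the 20 KZFPs, 18 overlapped one of any deposited score, and 34 (10.4%) overlapped a ZNF251 peak above 80. Of the 334 genes, 55 also had a ZNF251 promoter peak, which is 16.5% of these genes and 3.66% of the 1501 ZNF251 genes, against the 7.57% of all genes with such a peak. By KZFP this was 31 of 179 genes for ZNF746 (17.3%), 9 of 29 for ZNF578 (31.0%), 5 of 14 for ZNF546 (35.7%), 5 of 42 for ZNF850 (11.9%) and 0 of 17 for ZNF763. The libraries share the cell line, the antibody and, for ChIP-exo, the control, and the part of these in the overlaps was not tested.

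The share of promoter peaks rich in CpG differed between KZFPs. A window of 500 bp around the midpoint was called CpG-rich when its GC was at least 55% and its ratio of observed to expected CpG at least 0.65. Of all promoter peaks, 246 were CpG-rich (75.2%, 70.2 to 79.8), against 62.4% of the starts of all protein-coding genes. The latter windows were centred on 1 start per gene, while promoter peaks lie near any annotated start. Near that 1 start lay 8 of the 14 ZFP28 and 17 of the 25 ZNF578 promoter peaks, and the share for all KZFPs was 80.6%. The part of the other starts in the differences between KZFPs was not tested. Without ZNF746, the share of promoter peaks near any annotated start that were CpG-rich was 58.5% (50.1 to 66.6). ZNF546 had 13 of 13 (75.3 to 100), ZNF746 88.9% (83.4 to 93.1) and ZNF850 82.9% (66.4 to 93.4). ZNF763 had 81.2% (54.4 to 96.0) and ZKSCAN7 5 of 7 (71.4%, 29.0 to 96.3), with intervals that hold the share of all starts. ZNF578 had 32.0% (14.9 to 53.5), ZFP28 21.4% (4.66 to 50.8) and ZNF160 1 of 10 (10.0%, 0.253 to 44.5), with upper bounds below the share of all starts. ZNF446 had 2 of 5 (40.0%, 5.27 to 85.3) and ZNF724P 3 of 6 (50.0%, 11.8 to 88.2), with intervals that hold it. The median GC of promoter peaks was 73.8% for ZNF546, 72.9% for ZNF746, 66.8% for ZNF850, 50.6% for ZNF578 and 41.4% for ZNF160, against 64.6% at all starts.

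The other peaks of the same libraries had far fewer CpG-rich windows, with an exception. For ZNF850 they were 3.96% of 429 other peaks, for ZNF578 1.09% of 829, for ZFP28 0.185% of 1084 and for ZNF160 0% of 6367. For ZNF746, 65.0% of the 80 other peaks were CpG-rich too. Part of these 80 lay not far from a start, since ZNF746 had 208 peaks within 1000 bp and 216 within 2500 bp of one, against 180 within 500 bp. For ZNF546 it was 5 of 11 (45.5%) and for ZNF763 31.2% of 208.

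**Figure D4:**
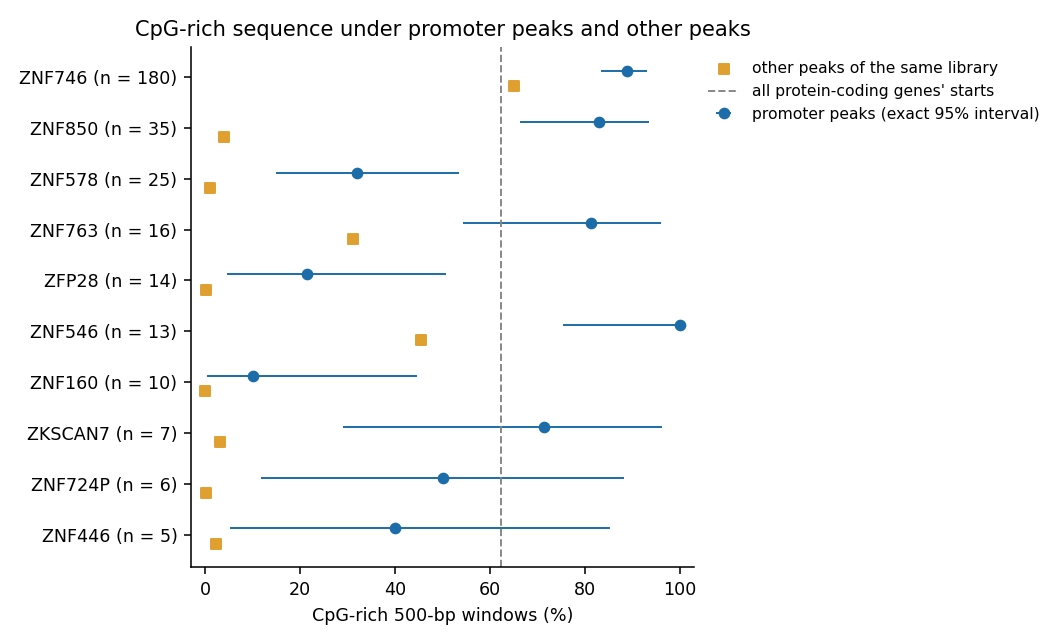
Share of CpG-rich 500-bp windows (in %) under promoter peaks (points with exact 95% intervals) and under the other peaks of the same library (squares), for KZFPs with at least 5 promoter peaks, with the share at the starts of all protein-coding genes (62.4%) as a dashed line. ZNF746 and ZNF546 have the highest squares, at 65.0% and 45.5%, and the promoter peaks of ZNF578, ZFP28, ZNF160, ZNF446 and ZNF724P are below the line, the last 2 with intervals that cross it.

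Promoters with another gene starting on the other strand within 1000 bp upstream made up 151 of the 334 genes (45.2%, 39.8 to 50.7), against 29.3% of all protein-coding genes and 37.9% of genes with a CpG-rich start. Where the other gene also had to be protein-coding, it was 59 genes (17.7%) against 15.1%. ZNF850 had the highest share among KZFPs with at least 20 promoter genes, with 25 of 42 (59.5%, 43.3 to 74.4), followed by ZNF578 with 14 of 29 (48.3%, 29.4 to 67.5) and ZNF746 with 81 of 179 (45.3%, 37.8 to 52.8). ZNF160 had 1 of 10. A gene counts when any of its starts is divergent, in both sets. There were 19 peaks within 500 bp of the starts of 2 or more genes. Each of them adds all of its genes, so the gene counts and their intervals do not rest on independent genes. By peak, 19 of 35 ZNF850, 12 of 25 ZNF578 and 79 of 180 ZNF746 promoter peaks had a divergent gene.

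Common promoter motifs were counted in the same 500 bp on both strands. The GC box (GGGCGG), bound by SP and KLF factors, was in 97.8% of ZNF746 promoter peaks (94.4 to 99.4), against 69.4% of all starts and 91.0% of CpG-rich starts. The CCAAT box (CCAAT), bound by NF-Y, was in 23.9% of them (17.9 to 30.8), against 43.3% of all starts and 39.0% of CpG-rich starts, and the ETS core (CCGGAAG) in 5.00% (2.31 to 9.28), against 16.7% and 22.4%. ZNF746 promoter peaks thus held GC boxes more often and CCAAT boxes and ETS cores less often than either set of starts, with intervals that do not reach those shares. ZNF578 promoter peaks held the GC box in 48.0% (27.8 to 68.7) and CCAAT in 52.0% (31.3 to 72.2). ZNF850 had the GC box in 85.7% (69.7 to 95.2) and CCAAT in 37.1% (21.5 to 55.1).

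The remaining motifs searched were the CRE (TGACGTCA), the E-box (CACGTG), part of an NRF1 site (GCATGCGC), a YY1 core (AAGATGGC), part of a ZBTB33 site (TCTCGCGA), a ZNF143 core (ACTACAA) and the TATA box (TATAAA). They were in 2.45%, 8.56%, 1.83%, 2.14%, 1.22%, 3.36% and 7.65% of all promoter peaks, against 2.86%, 10.9%, 4.63%, 5.28%, 1.89%, 3.83% and 11.8% of all starts. A window around a peak midpoint need not be centred on the start, so that motifs at a fixed place before it can fall outside.

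The leading word of ZNF746, GGAGGGAG or its reverse complement CTCCCTCC, was in the central 100 bp of 53 of its 180 promoter peaks (29.4%, 22.9 to 36.7). In its other peaks, from which the word was chosen, it was in 33.8%. Part of those other peaks lay within 1000 bp of a start. In windows 500 bp to either side of the promoter peaks it was in 4.44%, at the starts of all genes in 3.96% and at CpG-rich starts in 4.37%. In the wider window of 500 bp it was in 102 of 180 (56.7%, 49.1 to 64.0), against 16.2% of all starts and 17.5% of CpG-rich ones. One or more of the 5 leading words were in 95 of 180 (52.8%, 45.2 to 60.2), against 63.7% of the other peaks and 11.0% of all starts. On the strand of the nearest gene it read CTCCCTCC in 32 peaks and GGAGGGAG in 22 (1 peak held both), so both orientations occurred.

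For the KZFPs with many peaks in related sequences, promoter peaks held the leading word less often than other peaks did. ZNF578 had GGTCCTGA in 5 of 25 promoter peaks (20.0%, 6.83 to 40.7) and in 49.5% of other peaks, against 0.338% of all starts. Among these 5, the peaks at ARHGAP32 and PARD3 hold near-identical sequence around the word. ZNF850 had CCCCTCTC in 4 of 35 (11.4%, 3.20 to 26.7) and in 45.9% of other peaks, against 1.38% of all starts. ZFP28 had GAAATAGA in 0 of 14 promoter peaks (up to 23.2%) and in 25.1% of other peaks. ZNF724P had AAGTCCAA in 0 of 6 (up to 45.9%) and in 36.5% of other peaks, and ZNF160 had AGAAGAAA in 0 of 10 (up to 30.8%) and in 21.3%. For the last 2 the interval reaches the share of other peaks, so that with so few promoter peaks a difference was not detectable. A word is a description of these windows and not a binding site.

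**Figure D5:**
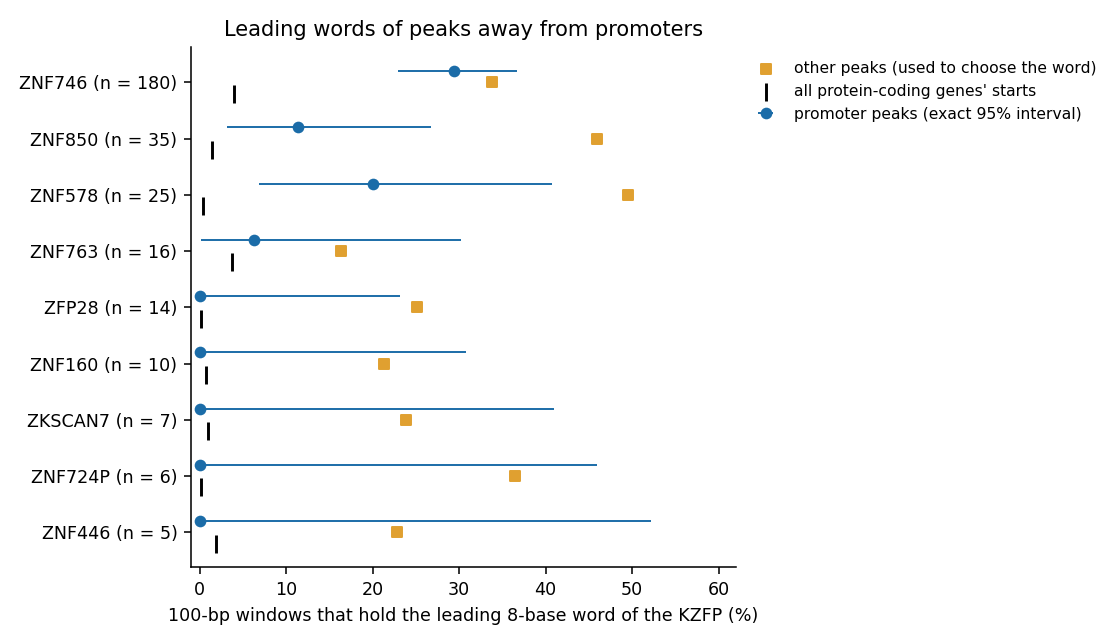
Share of 100-bp windows that hold the leading 8-base word of each KZFP (in %), for promoter peaks (points with exact 95% intervals), for the other peaks from which the word was chosen (squares) and for the starts of all protein-coding genes (black marks). For ZNF746 the promoter peaks (29.4%) lie near the other peaks (33.8%), while for ZNF850 (11.4% against 45.9%) and ZNF578 (20.0% against 49.5%) they lie between the other peaks and all starts.

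Matches of at least 100 bp between peaks of 1 list showed the same division for ZNF850, ZNF578, ZFP28, ZNF724P and ZNF160. Among ZNF850 promoter peaks, 2 of 35 matched an other peak of ZNF850 (5.71%, 0.700 to 19.2), those at OR10H4 and MFSD8, while 79.3% of its other peaks matched one another. For ZNF578 it was 3 of 25 (12.0%, 2.55 to 31.2) at PARD3, ARHGAP32 and RNF185, against 74.8%. For ZFP28 it was 1 of 14, at PYM1, the promoter peak with its highest score, against 65.3%. For ZNF724P it was 0 of 6 against 82.2%, and for ZNF160 4 of 10 (40.0%, 12.2 to 73.8), at TRIM16, KLKB1, MAGEC3 and ASXL2, against 92.8%. ZNF746 differed, since 0 of 180 promoter peaks (up to 2.03%) and 0 of 80 other peaks (up to 4.51%) matched an other peak. ZNF34 alone of the lists compared had the higher share at promoters, with 2 of 4 (50.0%, 6.76 to 93.2) against 36.5%.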

How the data were processed

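ChIP-exo peak lists of 14 KZFPs, ChIP-seq peak lists of 6 KZFPs and the list of the HEK293T control were used, with ZNF251 for comparison. The authors mapped reads to hg19 with Bowtie2 and called peaks in each library with MACS (2.2.1 and 1.4 in the submitters' processing notes). They used a sample drawn at random from all libraries as the ChIP-exo control and a total input for ChIP-seq. The deposited value is the MACS score of each peak, at least 50 in these lists, which depends on depth and control. Beyond the common threshold, scores were ranked only within a list, except where genes with most KZFPs and zinc finger genes were chosen for naming.

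Peaks above 80 were kept, as in the study. Starts were those of the 89217 protein-coding transcripts of GENCODE release 44 mapped to hg19. Sequence features at the starts of all genes were read in windows centred on 1 start per gene, the canonical one where annotated. A peak was given every gene with a start within 500 bp of its midpoint and named by the nearest. Shares have exact Clopper-Pearson 95% intervals (scipy 1.17.1), which cover counting error only. With 1 library per KZFP no test was made. Gene classes were patterns of symbols and include genes that share only the symbol. Sequence was read with pysam 0.24.0 and peaks were matched with blastn 2.17.0 (at least 100 bp, E value below 1e-5, low complexity masked, and every n-th other peak as the query for ZFP28 and ZNF160, 542 and 531 peaks).

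The members and lists were chosen with earlier results of these data known. Named were, for each KZFP, the 3 highest-scoring promoter peaks, up to 3 genes of each class with at least 3 promoter genes in KZFPs with at least 20, the 10 genes with most KZFPs, and up to 10 zinc finger genes. Genes outside this rule, those with a word or a match and the further members of a class among them, were named after their values were seen. The words, the matches and the comparison with CpG-rich starts were added after the data were seen. Scripts were tested on simulated peaks and sequences. Alternatives were other scores, distances, starts, limits and sets of libraries. Repeats were not annotated here. Some promoters are not reported here by name or sequence.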

Additional observations from a re-analysis of the deposited data

Results flagged for a closer look

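Among deposited ZNF746 peaks with a score of up to 80, which the comparisons above leave out, 168 of 397 lay within 500 bp of a protein-coding start (42.3%, exact 95% interval 37.4 to 47.3). The control had 3 of 159 such peaks (1.89%, 0.391 to 5.41), and ZNF746 was the only KZFP of the 20 whose interval lay wholly above that of the control. The next highest shares were those of ZNF256 (3 of 52, 5.77%, 1.21 to 15.9) and ZNF850 (29 of 529, 5.48%, 3.70 to 7.78), whose intervals overlap that of the control.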

How the results depend on the processing

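No paired analysis was possible because each KZFP had 1 library. The main values were 327 promoter peaks, 334 genes, 7 genes with 2 or more KZFPs, 45.2% divergent genes and 75.2% CpG-rich peaks. With all deposited peaks there were 893 peaks, 867 genes, 39 shared genes, 37.3% divergent and 62.7% CpG-rich. Shared genes numbered 3 above a score of 100. Above 150 there were 108 peaks, 115 genes, 2 shared genes, 5.22% zinc finger genes (against 2.69%) and 67.6% CpG-rich. Within 250 bp there were 4 shared genes and 80.7% CpG-rich, and within 1000 bp 64.6% CpG-rich. Within 2500 bp there were 620 peaks, 648 genes, 16 shared genes and 47.4% CpG-rich. With 1 start per gene 80.6% were CpG-rich, and with limits of 50% GC and a CpG ratio of 0.6 it was 80.1%. With 300 bp between starts 34.7% of genes were divergent. For these limits and this distance the shares of all starts and all genes were not counted, and those given above do not apply. Without ZNF746, chosen after seeing the data, there were 147 peaks, 158 genes, 4 shared genes and 58.5% CpG-rich, and with ChIP-exo alone, likewise, 142 peaks, 151 genes, 4 shared genes and 57.7%. Leaving out peaks that overlap control peaks or lie on the transduced gene removed no promoter peak, so these 2 settings are not counted here. Of 70 such values, 41 moved by at most 1.5 times (counts) or stayed within the interval of the main value (shares). Among these was each share of developmental genes of ZNF746 (6.85 to 10.9%). Of 160 counts for single KZFPs, 95 moved by at most 1.5 times, 39 rose further and 26 fell further. The 95 include counts that stayed at 0 for the 4 KZFPs with no promoter peak, which a stricter score or distance could not change. The causes were not tested. The lists give no depth, and KZFPs with under 10 promoter peaks leave intervals too wide to compare.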
